A study of Canis lupus familiaris with 6 samples.

Results

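The genes described here make, phosphorylate and consume NAD, and they were followed in the whole blood RNA of Beagle dogs fed CPP-Se. The members were 10 genes chosen by symbol: NAMPT, NAPRT, NMNAT1, NMNAT3, NADSYN1, NADK, CD38, SIRT1, SIRT2 and PARP1. All 10 were matched among the 31512 genes of the expression table, and all 10 were among the 9847 genes tested. The comparison was between 3 control dogs (CONT) and 3 dogs given the supplement (CPP_Se), with 1 library per dog. Every dog was a healthy adult of 1.5 years on the same maintenance food, had 7 days to get used to the snacks, and ate 30 g of snack until blood was drawn on day 30. The CPP-Se dogs ate a snack with 0.03% CPP-Se, a selenium chelate of casein phosphopeptides, whereas the control snack held none. Each library came from a separate animal, and the labels and methods name no pairing of dogs between the groups.

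NAD carries electrons in energy metabolism and is also used up as a substrate by sirtuins, PARP enzymes and CD38, so cells have to renew it. In salvage, NAMPT joins nicotinamide to phosphoribosyl pyrophosphate, which is the rate-limiting step, and an NMNAT enzyme completes NAD. In the Preiss-Handler route, NAPRT starts from nicotinic acid, and NADSYN1 adds the amide at the end. NADK phosphorylates NAD to NADP, whose reduced form feeds the phagocyte oxidase and the glutathione and thioredoxin reductases. NAMPT is abundant in neutrophils, and a secreted form of it acts on immune cells.

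Between 6598173 and 8067034 reads were recovered per dog. CPP-Se replicate 2 stood apart, with 36.6% of its reads from 8 hemoglobin genes where the other 5 dogs had 48.7% to 55.9%. Without this dog the log2 fold changes given below were -1.27 for NAMPT, -0.98 for NADK and 0.60 for PARP1, in place of -1.10, -0.80 and 0.60.

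NADK, NAMPT and NAPRT carried most of the RNA of this group. Their FPKM (fragments on a gene scaled by its length and by library size, a level that can be compared between genes) together made up 84.3%, 83.8% and 86.0% of the summed FPKM of the 10 genes in CONT 1, 2 and 3. The share was 73.5%, 81.6% and 73.2% in CPP_Se 1, 2 and 3 (numbers are replicates, in this order throughout), below every control dog. The summed FPKM itself was 250, 271 and 251 in the control dogs versus 206, 200 and 164 in the CPP-Se dogs, again without overlap. Unlike the share, this sum depends on the scaling between dogs. A common FPKM sum in every dog divides CPP-Se replicate 2 by 0.663 and the other dogs by 1.00 to 1.18. CPP-Se replicate 2 then has the highest sum of all dogs. SIRT1 had the lowest mean level of the 10 genes in both groups.

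**Figure D1:**
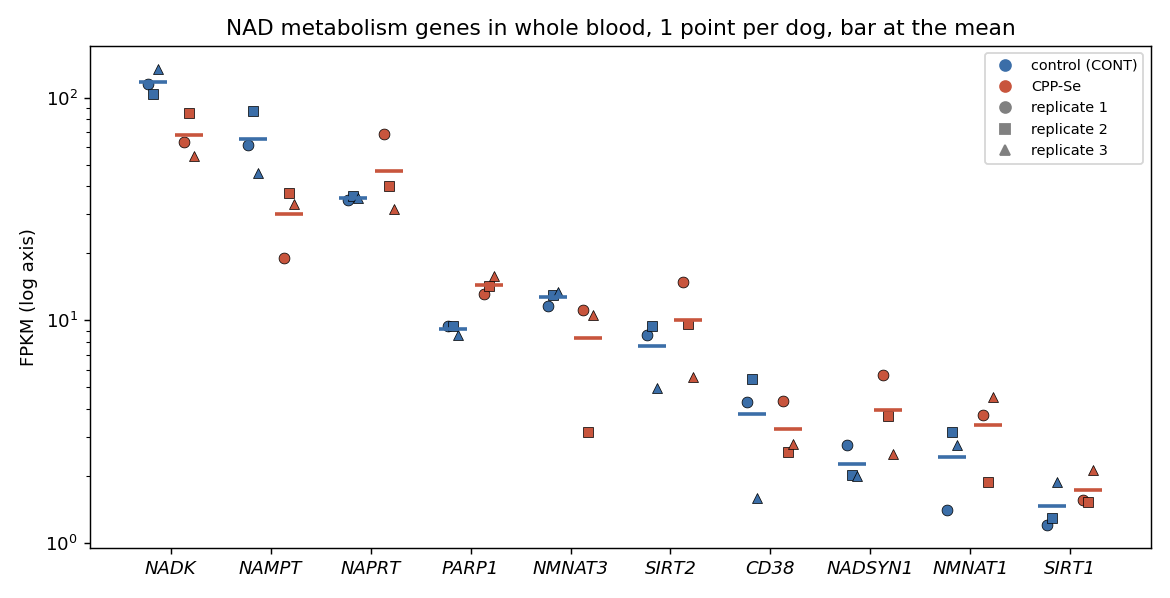
FPKM of each of the 10 NAD genes (log axis) in every dog, ordered by the mean over the 6 dogs; blue points are control dogs, red points CPP-Se dogs, the shape gives the replicate and the bar the group mean. The groups were apart for NADK, NAMPT, PARP1 and NMNAT3, and NAPRT stayed between 34.7 and 36.1 FPKM in the control dogs but ran from 31.7 to 68.9 FPKM in the CPP-Se dogs.

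NAMPT (ENSCAFG00000003992, chromosome 18, 13993022 to 14208657, plus strand, in the dog genome of Ensembl release 100) was lower in each CPP-Se dog than in any control dog. Its FPKM was 61.6, 87.3 and 45.8 in the control dogs versus 19.1, 37.3 and 33.4 in the CPP-Se dogs. In the deposited FPKM the groups did not overlap, and CPP-Se replicate 1 was the lowest dog. Under a common FPKM sum, which raises CPP-Se replicate 2 beside the other dogs, the NAMPT groups overlap. Mean NAMPT was 64.9 ± 20.98 FPKM without CPP-Se and 29.9 ± 9.56 FPKM with it (SD, n = 3, as for every mean given), a ratio of means of 0.461. The log2 fold change of FPKM + 1 was -1.10 with a 95% interval from -1.84 to -0.35. This difference missed the threshold (limma with Benjamini-Hochberg adjustment, standard error 0.32, adjusted p = 0.192, unadjusted p = 0.00981). Between 335 and 1525 reads per dog lay on NAMPT, so counting error was small beside the spread between dogs. In whole blood, fewer cells of a type and less RNA per cell cannot be told apart.

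NAMPT is also the member for which the study designed an RT-qPCR assay, and its primers are printed because they define the NAMPT transcript that was measured apart from sequencing. Both have 20 bases and a GC content of 55%, in lower case throughout and 5′ to 3′, and the RT-qPCR values were not analysed here.
NAMPT forward: tgcctttggttctggtggag
NAMPT reverse: tccctgctggtgtcctatgt

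NADK (ENSCAFG00000019219, chromosome 5, 56745869 to 56774529), the kinase that makes NADP, had the highest level of the 10 genes in 5 of the 6 dogs. Its FPKM was 115, 104 and 135 in the control dogs versus 63.3, 85.7 and 54.8 in the CPP-Se dogs. Every CPP-Se dog lay below every control dog, and CPP-Se replicate 2 was nearest to them. Under a common FPKM sum the NADK groups overlap. The group means were 118 ± 15.8 and 67.9 ± 16.0 FPKM, and the log2 fold change was -0.80 (95% interval -1.32 to -0.27). NADK did not pass either (limma with Benjamini-Hochberg adjustment, standard error 0.23, adjusted p = 0.185, unadjusted p = 0.00810). 

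PARP1 (ENSCAFG00000016089, chromosome 7, 38503067 to 38542127), which senses DNA breaks and spends NAD on poly(ADP-ribose) chains, stood out in the other direction. It had 9.41, 9.46 and 8.60 FPKM in the control dogs and 13.2, 14.3 and 15.8 FPKM in the CPP-Se dogs. The dogs of a group were close together, with SDs of 0.487 and 1.31 FPKM around means of 9.16 and 14.4 FPKM, and the groups did not overlap. The log2 fold change was 0.60 (95% interval 0.22 to 0.98) and missed the threshold as well (limma with Benjamini-Hochberg adjustment, standard error 0.16, adjusted p = 0.183, unadjusted p = 0.00690). This was the smallest p of the 10 genes, at rank 368 of the 9847 genes tested.

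Of the 10 members, 0 were DEGs (limma, differing by at least 1.5-fold at an adjusted p below 0.05), where 3 of all genes tested (0.0305%) were. An unadjusted p under 0.05 was found for 3 members, NAMPT and NADK on the lower side and PARP1 on the higher side, against 16.0% of all genes (9.10% lower and 6.87% higher). With a common FPKM sum in every dog, NADK was no longer among them (log2 fold change -0.64, limma, unadjusted p = 0.112). The groups did not overlap in 4 members, 3 lower and 1 higher, against 23.0% of all genes (12.6% lower and 10.4% higher). In all, 6 members had a positive and 4 a negative log2 fold change, and their median was 0.23, beside -0.0043 over all genes tested.

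The count models differed in their calls. Reads recovered from the FPKM were fitted by a negative binomial model, whose Wald test read against a normal distribution called NAMPT, NADK and PARP1, with adjusted p of 0.00489, 0.00872 and 0.00349 after Benjamini-Hochberg adjustment, where it called 8.26% of all genes tested (3.40% higher and 4.85% lower). The same model read against a t distribution, added after seeing the data, called 0 of the 10 members and 0.0102% of all genes, with adjusted p of 0.147, 0.159 and 0.140 for the same 3 genes. Limma-voom on the recovered reads also called 0 members and 0.0102% of all genes. An unadjusted p under 0.05 was found for 4 members in each of these fits, against 21.8% of all genes with the normal reference, 16.1% with the t reference and 16.1% with limma-voom. The fourth was NADSYN1, higher, in the negative binomial fits and NMNAT3, lower, in limma-voom.

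**Figure D2:**
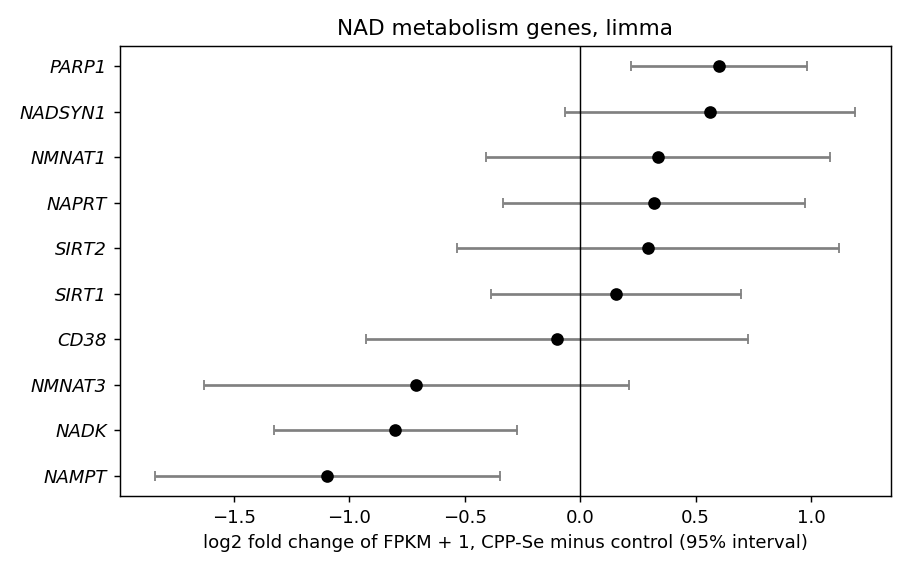
Log2 fold change of FPKM + 1 (CPP-Se minus control, horizontal axis) of the 10 NAD genes with its 95% interval from limma. The intervals of NAMPT, NADK and PARP1 exclude 0, those of the other 7 genes include it, and 0 of the 10 passed after adjustment over all genes.

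The genes of the nicotinic acid route, NAPRT and NADSYN1, had higher means in the CPP-Se group, in contrast to NAMPT. NAPRT (ENSCAFG00000031759, chromosome 13, 37235045 to 37239224) had 34.7, 36.1 and 35.4 FPKM in the control dogs, the tightest control group of the 10 genes with a coefficient of variation of 2.05%. The CPP-Se dogs had 68.9, 40.0 and 31.7 FPKM, on both sides of the control dogs. Its log2 fold change of 0.32 (95% interval -0.33 to 0.97) rested on CPP-Se replicate 1, without which it was 0.01, and it was 0.56 without CPP-Se replicate 3. NAPRT shares 75 bases with EEF1D on the same strand.

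NADSYN1 (ENSCAFG00000010388, chromosome 18, 47216577 to 47254514), the amidating enzyme that ends the route NAPRT begins, had 2.76, 2.03 and 2.00 FPKM in the control dogs and 5.70, 3.71 and 2.50 FPKM in the CPP-Se dogs. The groups overlapped through CPP-Se replicate 3. The log2 fold change was 0.56 (95% interval from just below 0 to 1.19, limma with Benjamini-Hochberg adjustment, adjusted p = 0.361), and 0.32 without CPP-Se replicate 1. For both NAPRT and NADSYN1, CPP-Se replicate 1 was the highest of the 6 dogs, and it was the lowest for NAMPT.

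Of the NMNAT enzymes that complete NAD, NMNAT3 was above NMNAT1 in each of the 6 dogs, but their ranges overlapped in the CPP-Se group. NMNAT3 (ENSCAFG00000007624, chromosome 23, 35714933 to 35829049), the form found in mitochondria and red cells, had 11.6, 13.1 and 13.4 FPKM in the control dogs and 11.2, 3.16 and 10.6 FPKM in the CPP-Se dogs. All CPP-Se dogs were below the control dogs, but replicates 1 and 3 only narrowly. NMNAT3 shares 719 bases with ENSCAFG00000043636 on the same strand, a gene listed at 0 FPKM in all 6 dogs. The log2 fold change of -0.71 (95% interval -1.63 to 0.21, limma with Benjamini-Hochberg adjustment, adjusted p = 0.428) became -0.20 without CPP-Se replicate 2. The part of that dog's low hemoglobin share in the NMNAT3 level was not tested.

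NMNAT1 (ENSCAFG00000032251, chromosome 5, 63122498 to 63151661), the nuclear form, had 1.41, 3.16 and 2.75 FPKM in the control dogs and 3.75, 1.87 and 4.55 FPKM in the CPP-Se dogs. These values overlapped widely and rested on 10 to 29 reads per dog. Its log2 fold change was 0.34 (95% interval -0.41 to 1.08), and it ran from 0.10 without CONT replicate 1 to 0.62 without CPP-Se replicate 2. NMNAT1 overlaps LZIC, on the opposite strand, over 253 bases.

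Of the members that use up NAD, PARP1 had groups without overlap, and CD38, SIRT1 and SIRT2 had not. SIRT2 (ENSCAFG00000005638, chromosome 1, 114224900 to 114234583), a mainly cytosolic deacetylase, had 8.60, 9.47 and 4.98 FPKM in the control dogs and 14.9, 9.64 and 5.56 FPKM in the CPP-Se dogs. Its log2 fold change was 0.29 (95% interval -0.53 to 1.12), and -0.01 without CPP-Se replicate 1. SIRT1 (ENSCAFG00000013316, chromosome 4, 19188675 to 19218279), its nuclear relative, had 1.21, 1.29 and 1.89 FPKM in the control dogs and 1.56, 1.53 and 2.13 FPKM in the CPP-Se dogs, from 19 to 47 reads per dog. The log2 fold change of SIRT1 was 0.16 (95% interval -0.39 to 0.70) and ran from 0.06 without CPP-Se replicate 3 to 0.28 without CONT replicate 3, and 8114 bases of the gene overlap HERC4 on the opposite strand.

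CD38 (ENSCAFG00000015298, chromosome 3, 64529721 to 64578099), a surface enzyme of lymphocytes and myeloid cells that cleaves NAD, had 4.31, 5.45 and 1.60 FPKM in the control dogs. The CPP-Se dogs, at 4.34, 2.57 and 2.80 FPKM, all lay within that range. Its log2 fold change was -0.10 (95% interval -0.93 to 0.73), and it changed sign under a common sum of FPKM (0.03). CD38 overlaps FBXL5 on the opposite strand over 2752 bases. The intervals of CD38, SIRT1, SIRT2 and NMNAT1 leave room for a change of at least 1.5-fold, so these genes were not shown to be alike in the groups.

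In the order of levels, the control dogs separated the first genes clearly. NADK was above NAMPT, NAMPT above NAPRT and NAPRT above NMNAT3 in 3 of 3 control dogs, with no overlap between the neighbours. From PARP1 down to NADSYN1, neighbours overlapped. In the CPP-Se dogs the mean of NAPRT (46.8 FPKM) came above that of NAMPT (29.9 FPKM), but the ranges of NADK and NAPRT, and of NAPRT and NAMPT, overlapped there, and the order of this pair held in 2 of 3 dogs.

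Ratios between genes of the same library do not depend on the scaling between dogs, and the ratios below were chosen after the values were seen, so they are given with no test. NAMPT over NAPRT, the entry enzymes for nicotinamide and for nicotinic acid, was 1.78, 2.42 and 1.29 in the control dogs versus 0.278, 0.931 and 1.06 in the CPP-Se dogs. The groups did not overlap, and NAMPT was the higher of the pair in all 3 control dogs and in 1 CPP-Se dog. NAMPT over PARP1 was 6.54, 9.23 and 5.32 in the control dogs versus 1.45, 2.60 and 2.12 in the CPP-Se dogs. NADK over PARP1 separated the groups too, at 10.9 to 15.7 against 3.47 to 5.98. NAMPT over NADK did not, with 0.538, 0.843 and 0.340 in the control dogs versus 0.302, 0.435 and 0.610 in the CPP-Se dogs. NMNAT3 over NMNAT1 was 4.13 to 8.27 in the control dogs versus 1.69 to 2.98 in the CPP-Se dogs, with few reads on NMNAT1.

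**Figure D3:**
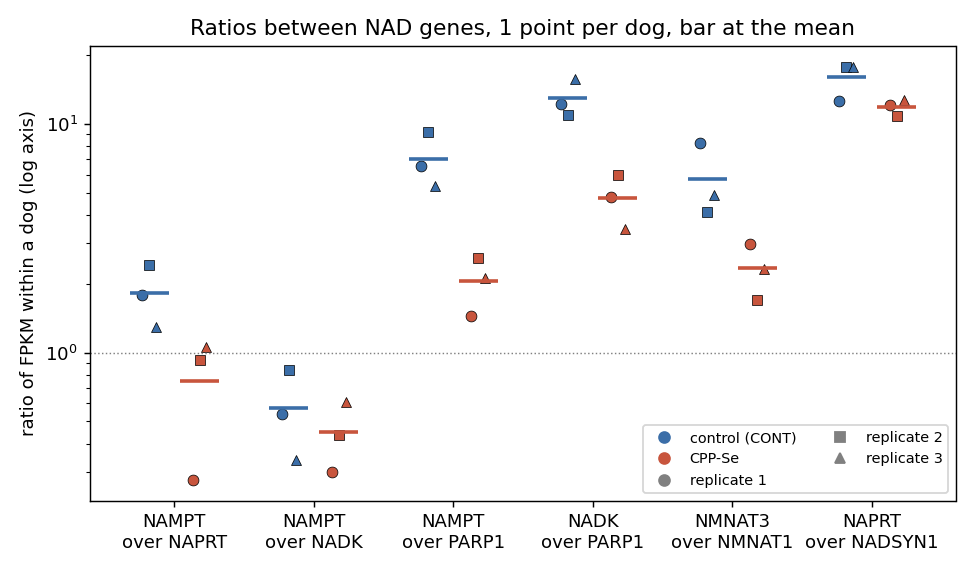
Ratios of FPKM between pairs of NAD genes within each dog (log axis, dotted line at a ratio of 1); blue points are control dogs, red points CPP-Se dogs, shapes give the replicate and bars the group mean. NAMPT over NAPRT was above 1 in all control dogs and in 1 CPP-Se dog, whereas NAMPT over NADK overlapped between the groups.

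The lower levels of NAMPT and NADK went together with lower levels of myeloid marker genes. Of 12 listed neutrophil markers, 8 were matched by symbol and 7 tested, and 4 were lower with an unadjusted p under 0.05 (9.10% of all genes were). Their median log2 fold change was -0.80, and MMP9, at 1.35 with overlapping groups, was the exception to the direction. The summed FPKM of the neutrophil list was 2240 to 2997 in the control dogs versus 1736 to 2227 in the CPP-Se dogs. For the monocyte list the sums were 336 to 449 and 220 to 240, and 5 of the 6 genes tested were lower with an unadjusted p under 0.05. These gaps hold for the deposited FPKM. A common FPKM sum divides CPP-Se replicate 2 by 0.663 and the other dogs by 1.00 to 1.18, and both sums then overlap between the groups. None of the marker genes of any list passed after adjustment (limma with Benjamini-Hochberg adjustment, where the smallest adjusted p was 0.138).

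CSF3R, the granulocyte colony-stimulating factor receptor, had 912, 711 and 1084 FPKM in the control dogs and 458, 600 and 400 FPKM in the CPP-Se dogs. NADK over CSF3R was 0.126, 0.146 and 0.124 in the control dogs versus 0.138, 0.143 and 0.137 in the CPP-Se dogs, and all 3 CPP-Se values lay within the range of the control dogs. Relative to CXCR2, another neutrophil receptor, NADK was at 0.546, 0.649 and 0.643 without CPP-Se and at 1.10, 0.803 and 0.603 with it, so 2 of 3 CPP-Se dogs were above every control dog. Relative to the summed neutrophil markers, NADK was at 0.0382, 0.0462 and 0.0596 without CPP-Se and at 0.0284, 0.0474 and 0.0316 with it, so 2 of 3 CPP-Se dogs were below every control dog. These low ratios rested on MMP9, which had 729 and 540 FPKM in CPP-Se replicates 1 and 3 and 68.3 to 96.3 FPKM in the control dogs. Without MMP9 in the sum, a choice made after seeing the data, NADK was at 0.0395, 0.0477 and 0.0620 without CPP-Se and at 0.0422, 0.0481 and 0.0458 with it, all within the range of the control dogs. NADK over the summed monocyte markers was 0.300 to 0.311 in the control dogs versus 0.237 to 0.356 in the CPP-Se dogs. NAMPT over CSF3R was 0.0675, 0.123 and 0.0422 in the control dogs versus 0.0417, 0.0621 and 0.0835 in the CPP-Se dogs, which overlapped. Relative to CXCR2, NAMPT was at 0.218 to 0.547 and 0.334 to 0.368. Relative to the summed neutrophil markers it was at 0.0205, 0.0390 and 0.0202 without CPP-Se and at 0.00858, 0.0206 and 0.0193 with it, and without MMP9 in the sum at 0.0212, 0.0402 and 0.0210 against 0.0128, 0.0209 and 0.0279. With either sum, CPP-Se replicate 1 was the lowest dog and 2 of 3 CPP-Se dogs were below every control dog (replicates 1 and 3, or 1 and 2 without MMP9). For the summed monocyte markers the values were 0.167, 0.260 and 0.102 against 0.0867, 0.155 and 0.144, with CPP-Se replicate 1 below every control dog. The part of the cell make-up in the NAMPT and NADK levels was not tested.

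PARP1 went with lymphocyte markers. Of 8 T cell markers tested, 5 were higher with an unadjusted p under 0.05 (6.87% of all genes were), and 1 was lower (log2 fold change -0.33). The summed FPKM of the list was 93.0 to 170 in the control dogs versus 196 to 262 in the CPP-Se dogs. The B cell list gave the same count, 5 of 8, and 1 marker was lower (log2 fold change -0.12). Its sums were 280 to 403 and 426 to 468, which overlap under a common FPKM sum. PARP1 over the summed T cell markers was 0.0557 to 0.0924 in the control dogs versus 0.0578 to 0.0730 in the CPP-Se dogs. Over the B cell sum it was 0.0233 to 0.0307 and 0.0281 to 0.0356. The part of the lymphocyte content in the PARP1 level was not tested. The 7 matched NK and cytotoxic markers summed to 8.17 to 15.8 FPKM in the control dogs and 24.2 to 39.0 FPKM in the CPP-Se dogs.

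**Figure D4:**
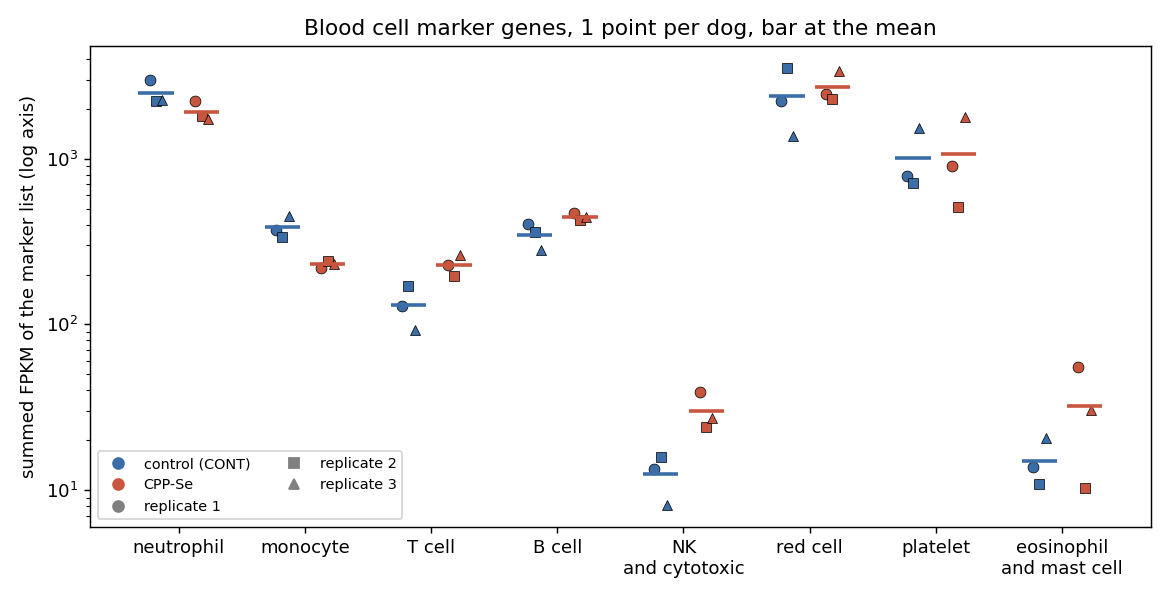
Summed FPKM of blood cell marker lists (log axis) in every dog; blue points are control dogs, red points CPP-Se dogs, shapes give the replicate and bars the group mean. In the deposited FPKM, the sums of the neutrophil list (narrowly, 2227 against 2240 FPKM) and of the monocyte list were lower in all CPP-Se dogs. Those of the T cell, B cell and NK lists were higher, while the red cell, platelet and eosinophil and mast cell lists overlapped. Under a common FPKM sum the neutrophil, monocyte and B cell lists overlap too.

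The red cell list summed to 1376 to 3531 FPKM in the control dogs and 2283 to 3357 in the CPP-Se dogs, and the platelet list to 716 to 1532 and 513 to 1781. The eosinophil and mast cell list, at 10.9 to 20.6 and 10.4 to 55.5 FPKM, overlapped as well. Single genes of these lists had an unadjusted p under 0.05, 3 higher and 1 lower of 8 red cell markers and 2 higher of 5 eosinophil and mast cell markers, but 0 of 5 platelet markers. Of all genes tested, 6.87% were higher and 9.10% lower at that p. Hemoglobin, lymphocyte, granulocyte and platelet genes were thus all present, as whole blood should have, while 5 liver and muscle markers summed to at most 3.39 FPKM, with the muscle gene CKM at 0.

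By the shape of its values over the 6 dogs, NAMPT was most like ACSL4, CDS2, SOD2, KLHL9 and CNIH4 among 4258 genes with a symbol and a mean of at least 5 FPKM. Pearson correlations of log2(FPKM + 1) with NAMPT were 0.999, 0.986, 0.982, 0.978 and 0.977, as a description over 6 dogs that includes the gap between the groups. ACSL4, which activates arachidonic acid for lipid synthesis, had 14.8, 21.04 and 10.3 FPKM in the control dogs and 3.78, 7.73 and 7.42 FPKM in the CPP-Se dogs, with the dogs in the same order as for NAMPT. SOD2, the mitochondrial superoxide dismutase, had 330, 363 and 273 FPKM against 143, 221 and 230 FPKM. Within the NAD group the correlation with NAMPT was highest for NADK (0.68) and lowest for NADSYN1 (-0.80).

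The wider NAD pathway was read from lists of 59 other genes, of which 49 were matched by symbol and 30 tested. None of the 30 was a DEG (limma, against 0.0305% of all genes), and 5 had an unadjusted p under 0.05, near the 16.0% of all genes that did. All 5 were on the lower side, where 9.10% of all genes were. With a common FPKM sum, with or without hemoglobin genes, NT5C2 alone of the 5 kept an unadjusted p under 0.05, and ADPRS had one on the higher side. Leaving out 1 dog left 1 to 6 pathway genes with such a p on the lower side, NT5C2 among them each time. There was 1 without CONT replicate 2, 2 without CONT replicate 3 and 3 without CONT replicate 1 or CPP-Se replicate 2. On the higher side there were 2 without CONT replicate 2 or CPP-Se replicate 1, 1 without CPP-Se replicate 3 and 0 otherwise. Shares over all genes are not given for these fits. The groups did not overlap in 6 lower genes and 1 higher gene, against 12.6% and 10.4% of all genes. In total 11 were higher and 19 lower, with a median log2 fold change of -0.18 beside -0.0043 over all genes tested. The negative binomial model read against a normal distribution called 2 of the 30, NT5C2 lower and ADPRS higher, where it called 8.26% of all genes, and the same model read against a t distribution called 0.

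NT5C2 (ENSCAFG00000010354), a cytosolic nucleotidase that also acts on the mononucleotides of the NAD routes, had the smallest p of these genes. Its FPKM was 16.5, 17.1 and 17.8 in the control dogs versus 9.41, 9.57 and 6.72 in the CPP-Se dogs. The groups were far apart beside their SDs of 0.628 and 1.61 FPKM, with a log2 fold change of -0.94 (limma with Benjamini-Hochberg adjustment, standard error 0.19, adjusted p = 0.138, unadjusted p = 0.00119). Another gene of the same list, PNP, which splits nicotinamide riboside and purine nucleosides, had 146 to 197 FPKM with overlapping groups and a log2 fold change of -0.05.

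Synthesis from tryptophan was represented by a pair of tested genes, both lower. HAAO, which opens the ring of hydroxyanthranilic acid, had 43.2, 38.8 and 37.5 FPKM in the control dogs and 26.8, 27.9 and 31.0 FPKM in the CPP-Se dogs (log2 fold change -0.46, adjusted p = 0.255 by limma with Benjamini-Hochberg adjustment). KMO, the kynurenine hydroxylase, had 1.61, 2.30 and 2.13 FPKM in the control dogs and 1.05, 0.871 and 0.600 FPKM in the CPP-Se dogs. These values rested on 6 to 28 reads per dog. The groups did not overlap in either gene, as in 12.6% of all genes on the lower side. TDO2, IDO1 and QPRT, at the entry and the end of this route, had 0 reads in all 6 dogs, as did NNMT, which methylates nicotinamide, NT5M and SLC22A13. A count of 0 allows up to 3 reads, for counting error only.

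OARD1, which removes ADP-ribose from proteins, and TIPARP, which attaches single ADP-ribose units, were the other genes with an unadjusted p under 0.05, which both lost under a common FPKM sum. OARD1 had 12.3 to 14.01 FPKM in the control dogs and 6.52 to 10.9 FPKM in the CPP-Se dogs, a log2 fold change of -0.61. TIPARP had 9.31 to 10.1 FPKM and 5.83 to 7.43 FPKM, a log2 fold change of -0.46. Of the 11 tested PARP family genes other than PARP1, 8 were lower and 3 higher, with log2 fold changes from -0.46 to 0.30. SIRT3, SIRT5 and SIRT6 had log2 fold changes of 0.46, -0.20 and 0.39, with overlapping groups. BST1, the relative of CD38 with the same activity, had 1.45 to 2.59 FPKM and 1.21 to 2.64 FPKM. In NADP and redox conversion, all 3 tested genes were higher without passing, and NNT, the mitochondrial transhydrogenase, had 7.87 to 8.31 FPKM in the control dogs and 9.89 to 11.5 FPKM in the CPP-Se dogs.

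**Figure D5:**
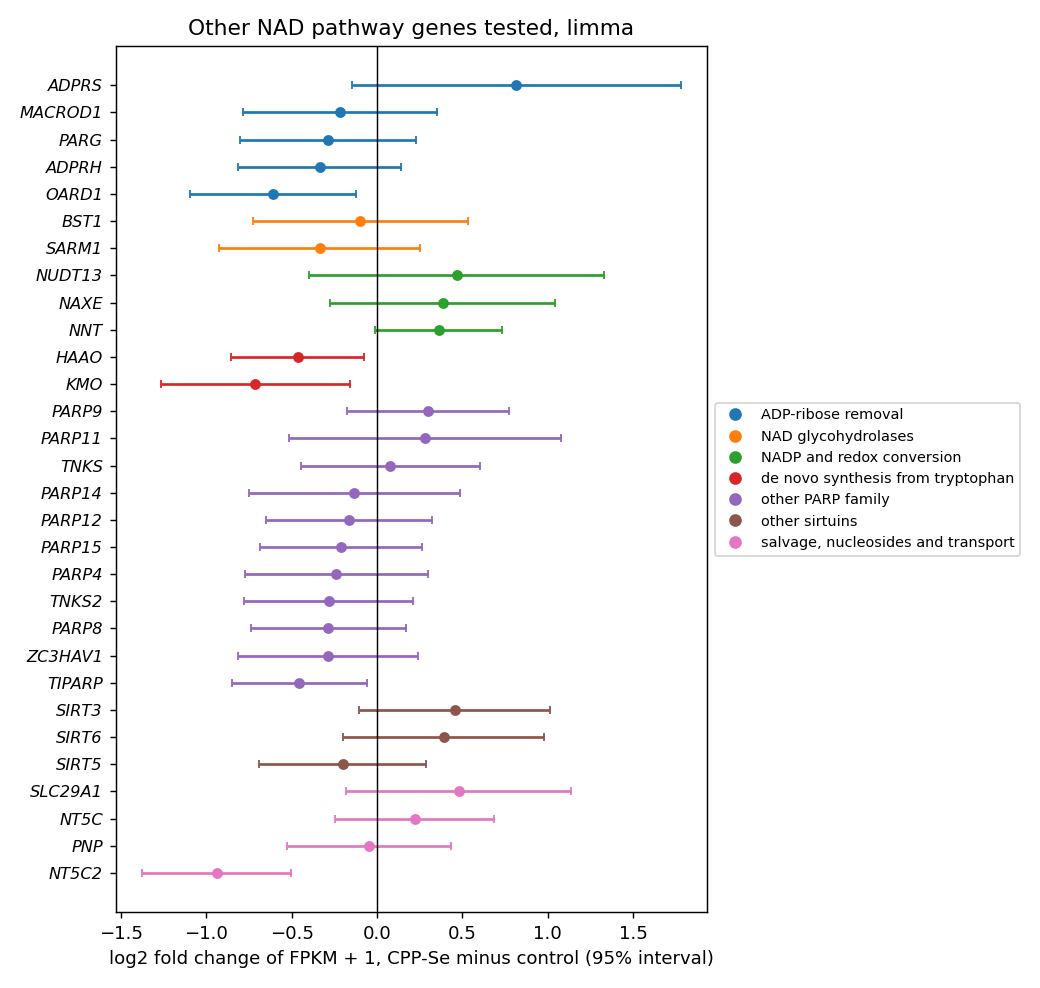
Log2 fold change of FPKM + 1 (CPP-Se minus control, horizontal axis) with its 95% interval from limma for the 30 tested NAD pathway genes other than the 10 members, coloured by list. The intervals of NT5C2, KMO, HAAO, OARD1 and TIPARP lie below 0, and 0 of the 30 genes passed after adjustment over all genes.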

How the data were processed

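Whole blood RNA of 6 dogs was extracted with Trizol, enriched for poly-A RNA and sequenced as paired ends (Illumina NovaSeq). Per the labels and the methods, the authors used CASAVA 2.19, fastp 0.19.7, HISAT2 2.0.5 and featureCounts 1.5.0-p3 with the dog genome of Ensembl release 100, and they deposited FPKM per gene together with gene lengths in bases. The library size behind the FPKM, the use of strand and the handling of shared reads are not given in the sources used here. FPKM multiplied by length was a whole multiple of 1 step within each library (100% of values within 0.2 reads of a whole number, the most abundant genes left out), so reads could be recovered. Gene totals ran from 6598173 to 8067034 reads. Library sizes implied by the values were 0.882 to 1.65 times those totals, highest in CPP-Se replicate 2, which shows that dogs had been scaled before deposit.

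Genes averaging 1 FPKM or more were tested on log2(FPKM + 1) with limma 3.58.1 in R 4.3.3 (lmFit, eBayes with trend, two-sided, Benjamini-Hochberg over all 9847 genes), without pairing. The pseudocount of 1 understates the fold change of low genes. DEGs differed by at least 1.5-fold at an adjusted p below 0.05. Intervals are 95% and come from this fit. In the negative binomial model, dispersions were shrunk to a trend. Tested on simulated data, its normal reference called more unchanged genes than its t reference, limma or limma-voom. Tables were prepared in Python 3.11.15 with pandas 2.3.3, numpy 2.4.6 and scipy 1.17.1, and figures with matplotlib 3.10.9. The members, pathway lists and marker lists were chosen with earlier results of these data known. Named were all members, the pathway genes with an unadjusted p under 0.05 and the 5 genes most correlated with NAMPT; other genes named (ADPRS, PNP, SIRT3, SIRT5, SIRT6, BST1, NNT, NADK2, NUDT12, NT5E, the genes at 0 reads, CSF3R, CXCR2, MMP9 and CKM) were chosen after their values were seen, as were the ratios. The gene descriptions of the table were not used for calls, and no promoter or protein sequence was used here.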

Additional observations from a re-analysis of the deposited data

How the results depend on the processing

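The log2 fold change of NAMPT kept its direction and that of NADK and PARP1 theirs in all 21 alternatives. With each dog left out, NAMPT lay between -1.32 and -0.81, and otherwise between -1.13 and -0.94, with adjusted p from 0.139 to 0.483 apart from the negative binomial model with a normal reference, where NAMPT was called (log2 fold change -1.11, adjusted p = 0.00489). That model called 813 genes (335 higher and 478 lower), 3 members and 2 other pathway genes. The number of DEGs was 0 with a pseudocount of 0.1 or no filter, 1 with a mean of at least 5 FPKM, with at least 10 recovered reads, with limma-voom or with the negative binomial model with t reference, and 12 with a common FPKM sum, of which 8 were higher and 4 lower, against 0 higher and 3 lower as reported; 0 members were among them. Leaving out a dog gave 0 to 14 DEGs, with 14 without CPP-Se replicate 2, 1 without CPP-Se replicate 1 and 0 without each of the other dogs, and 0 members and 0 other pathway genes each time. A common FPKM sum, with or without hemoglobin genes, left 2 members with an unadjusted p under 0.05 in place of 3, moved the median of all genes to 0.13 or 0.12 and turned CD38 to 0.0257 or 0.0156. Overlap between groups was read in the deposited FPKM. A common FPKM sum divides CPP-Se replicate 2 by 0.663 and the other dogs by 1.00 to 1.18. The groups of NAMPT and of NADK then overlap. With a dog left out, CD38 ran from -0.49 to 0.17 and SIRT2 from -0.0143 to 0.62. With the replicate number as a block, the number of DEGs was 1 and that of members called 0. Same-numbered dogs did not deviate together over all genes (correlations of 0.0165, -0.0900 and -0.0433), which cannot exclude a pairing of small effect. NMNAT1 and SIRT1 rest on at most 47 reads per dog, KMO on at most 28, and all genes on 3 dogs per group. The causes of these shifts were not tested.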

Other observations

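Of the other pathway genes, 13 had reads but a mean under 1 FPKM and were outside the comparison, and 2 of them had groups without overlap, both higher in the CPP-Se dogs (among the genes tested, 10.4% were higher without overlap). NADK2, the mitochondrial counterpart of NADK, had 0.550, 0.957 and 0.701 FPKM in the control dogs and 1.25, 1.09 and 1.23 FPKM in the CPP-Se dogs, from 8 to 31 reads, a direction opposite to that of NADK. Fitted with all genes above 0 in at least 1 dog, its log2 fold change was 0.34 (limma with Benjamini-Hochberg adjustment, adjusted p = 0.556). NUDT12, a peroxisomal enzyme that hydrolyses NADH, had 0.240, 0.205 and 0.408 FPKM in the control dogs and 0.409, 0.860 and 1.29 FPKM in the CPP-Se dogs, from 4 to 35 reads (adjusted p = 0.441 in the same limma fit). NT5E, the surface nucleotidase CD73, had read counts of 8, 10 and 1 without CPP-Se and 0, 3 and 1 with it, which overlap.

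The library of CPP-Se replicate 1 had the highest FPKM of the 6 dogs in NAPRT, NADSYN1 and SIRT2 and the lowest in NAMPT. It was also the highest for ADPRS, which removes ADP-ribose from serine, with 21.8 FPKM against 11.9 and 5.39 FPKM in the other CPP-Se dogs and 5.49 to 6.61 FPKM in the control dogs.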
